A study of Drosophila melanogaster with 18 samples.

Results

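The genes described here are 20 cytosolic aminoacyl-tRNA synthetase genes and 13 genes of serine, one-carbon, cysteine, proline and transaminase metabolism of Drosophila melanogaster, 33 in all. They were chosen by gene number from a fixed list. No measured value entered the rule, but the list was drawn up with earlier results of these data known. A probe carried the number of 32 of the 33, of 7257 probes on the array, and 30 members had enough values to be tested. RNA was measured in Schneider 2 (S2) cells, a hemocyte-like line derived from embryos. There were 6 groups of 3 arrays: XBP-1 RNAi with and without DTT, arrays labelled IRE1 RNAi with and without DTT, and control cells with and without DTT. Cells with DTT received 2 mM of this reducing agent for 7.4 hours, and cells without it were mock treated. The RNAi cells received double-stranded RNA against 1 target in repeated rounds, whereas control cells received none, so an effect of double-stranded RNA as such cannot be told apart from that of the target. All cells are of this 1 line, with no other genotype.

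Each array carried a Cy5-labelled sample and a common Cy3-labelled reference, a pool of RNA from S2 cells with and without DTT and from embryos. The values are log ratios, read here as log2 of sample over reference. The sources used here state neither the base nor the direction, and natural logs remain possible, so every size and sign below rests on that reading. The labels call the letters A, B and C replicates but do not say that they were separate cultures, so the p-values speak only of the scatter among these arrays, part of which may be technical. Each value belongs to bulk RNA, in which fewer cells of a kind and less RNA per cell cannot be told apart. An array held 3755 to 6696 values, and array medians ran from -0.81 to 0.24. The Ire1 probe goes against its label. On the 6 arrays labelled IRE1 RNAi it stood at 0.80, 2.55 and 2.20 with DTT and 2.06, 2.06 and 0.13 without DTT, against -1.08 to 0.41 on the other 12 arrays. The 2 Xbp1 probes differed by -0.39 and -0.65 with DTT between XBP-1 RNAi and control, and by -0.38 and -0.41 without DTT, with adjusted p-values of 0.977 to 0.998. Directions drawn for either RNAi arm therefore rest on its labels. Of 10 hemocyte markers 8 were measured, all below the median of all probes (-0.98 against -0.25). Of these, Hml and eater had a value on 2 arrays each, and Pxn, at -0.26, lay close to that median. The reference itself holds S2 RNA, so a ratio to it does not show whether the markers are present. Of 12 muscle, neuron, fat body, glia and yolk markers 6 were measured and all 6 lay below that median, with a median of -1.89. The other 6 (Syt1, futsch, repo, Fbp1, Lsp2 and Yp1) gave no value, nor did the hemocyte markers He and Col4a1.

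Aminoacyl-tRNA synthetases join each amino acid to its tRNA, the substrate of translation. DTT breaks the disulphide bonds of proteins folding in the endoplasmic reticulum (ER) and sets off the unfolded protein response. One branch of that response runs through IRE1, which cuts XBP-1 mRNA so that its active transcription factor can be made. Another runs through the kinase PEK (PERK), which phosphorylates eIF2. In mammals that second branch raises the transcription factor ATF4, known for inducing tRNA synthetases and enzymes of serine, one-carbon and other amino acid metabolism. The Drosophila counterpart of ATF4 is crc.

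In both RNAi arms most called synthetases rose with DTT and most called enzymes fell, whereas in control cells all calls of both subgroups were rises. The difference between the subgroups was not tested. For a difference of DTT effects between either RNAi arm and control, 0 of 30 members passed in limma without a block. These call counts therefore do not show that the arms differ. Of 18 tested synthetases 5 rose with DTT under XBP-1 RNAi and 1 fell. The arrays labelled IRE1 RNAi gave 4 rises and 1 fall, and control cells gave 7 rises and 0 falls. Of 12 tested enzymes 1 rose and 4 fell under XBP-1 RNAi. The arrays labelled IRE1 RNAi gave 0 rises and 5 falls, and control cells gave 2 rises and 0 falls. These are calls of limma at a Benjamini-Hochberg adjusted p under 0.05. By the same rule 4.51% of all 5649 tested probes rose and 11.3% fell under XBP-1 RNAi. The arrays labelled IRE1 RNAi had 3.43% of 5833 probes higher and 10.2% lower, and control cells had 7.16% of 5935 higher and 4.50% lower. The 0 falling enzymes in control cells stood beside 3 of 12 enzymes, in either direction, at an unadjusted p under 0.05, and with arrays centred on their medians limma called 2 falls there. The 0 falling synthetases in control cells stood beside 11 of 18, in either direction, at that unadjusted p, with 1 fall after centring. The 0 rising enzymes on the arrays labelled IRE1 RNAi stood beside 7 of 12, in either direction, and 2 rises after centring.

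The median DTT effect (with minus without DTT, log2 scale) of the synthetases was 0.45 under XBP-1 RNAi, 0.58 on the arrays labelled IRE1 RNAi and 0.99 in control cells. The enzymes' medians were -0.45, -0.57 and 0.26 in the same order of arms. All tested probes had medians of -0.08, -0.24 and 0.15. Over the 30 members 3 rose in all 3 arms, 4 fell in both RNAi arms, and 0 rose in one arm and fell in another. Such joint calls were not counted over all probes, so these counts are not shown to be particular to the members. In all 18 members were called in at least 1 arm and 12 in none, and 31 calls were made over all comparisons, with 1 of them between RNAi and control.

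**Figure D1:**
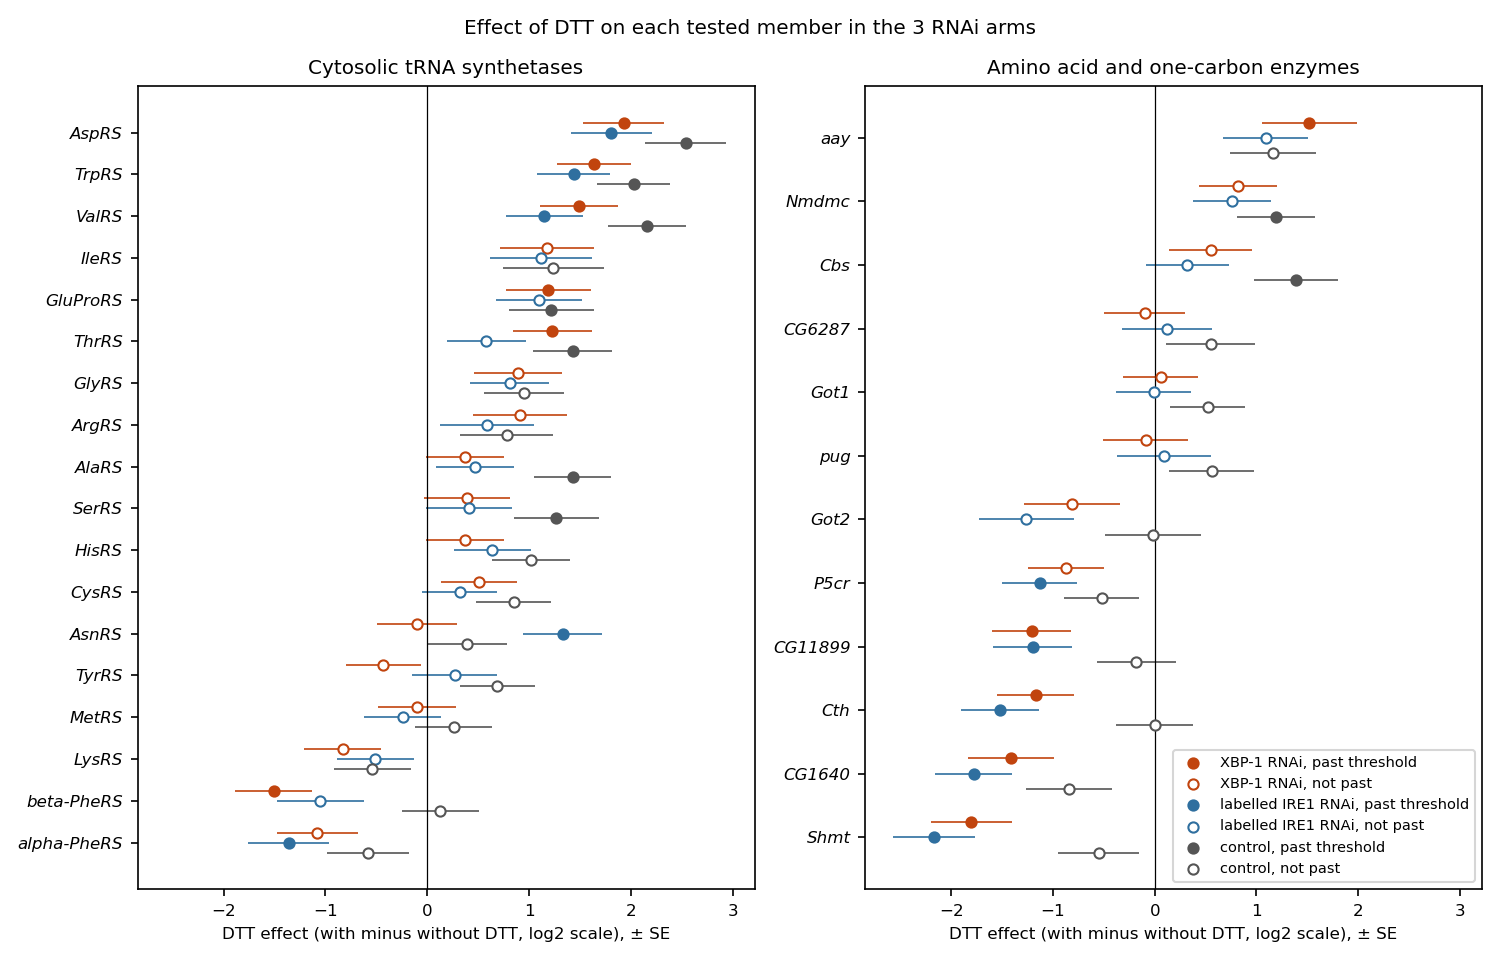
DTT effect (with minus without DTT) of each tested member in each arm on the log2 scale, with bars of 1 standard error and filled points for an adjusted p under 0.05. Most synthetases lie right of 0 in all arms, alpha-PheRS and LysRS lie left of it, and Shmt, CG1640, Cth, CG11899, P5cr and Got2 lie further left in both RNAi arms than in control cells.

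AspRS (probe 3821), which charges tRNA with aspartate, had log2 ratios of 0.87, 2.53 and 1.19 on arrays A, B and C with DTT under XBP-1 RNAi, and -0.19, -0.64 and -0.36 without DTT. The arrays labelled IRE1 RNAi gave 0.24, 1.58 and 1.12 with DTT and -0.88, -0.78 and -0.82 without DTT. Control cells gave 2.00, 1.41 and 1.82 with DTT and -0.75, -0.85 and -0.79 without DTT. In each arm every array with DTT lay above every array without it. Its DTT effects were 1.93 ± 0.40 (SE from limma, adjusted p = 0.000428) under XBP-1 RNAi, 1.81 ± 0.40 (0.00116) on the arrays labelled IRE1 RNAi and 2.54 ± 0.40 (7.09e-06) in control cells, the last a 5.82-fold difference.

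TrpRS (probe 9735), the tryptophan enzyme, had 1.71, 1.85 and 1.20 with DTT and 0.17, -0.30 and -0.04 without DTT under XBP-1 RNAi. It had 0.84, 1.35 and 1.05 with DTT and -0.38, -0.38 and -0.32 without DTT on the arrays labelled IRE1 RNAi. In control cells it had 1.87, 1.03 and 1.51 with DTT and -0.32, -0.73 and -0.64 without DTT. The groups did not overlap in any arm. The DTT effects were 1.64 ± 0.36 (adjusted p = 0.000773), 1.44 ± 0.36 (0.00393) and 2.03 ± 0.36 (5.51e-05) in the order XBP-1 RNAi, labelled IRE1 RNAi and control. The calls of AspRS and TrpRS held in every fit that left out 1 array.

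ValRS (probe 4062), the valine enzyme, had 0.80, 2.03 and 0.94 with DTT and -0.28, -0.35 and -0.07 without DTT under XBP-1 RNAi. Arrays labelled IRE1 RNAi had -0.16, 0.86 and 1.08 with DTT and -0.72, -0.33 and -0.63 without DTT. Control cells gave 1.36, 1.19 and 1.75 with DTT and -0.75, -0.93 and -0.50 without DTT. The groups did not overlap in any arm, and were closest on the arrays labelled IRE1 RNAi (-0.16 with DTT on A, -0.33 without DTT on B). The DTT effects were 1.49 ± 0.38 (adjusted p = 0.00446) under XBP-1 RNAi, 1.15 ± 0.38 (0.0359) on the arrays labelled IRE1 RNAi and 2.16 ± 0.38 (6.39e-05) in control cells. The call under XBP-1 RNAi ended without its array B with DTT (1.10, adjusted p = 0.0565). The call on the arrays labelled IRE1 RNAi ended without array A (1.07) or C (1.12) without DTT, or B (1.02) or C (0.91) with DTT, at adjusted p-values of 0.0858 to 0.183.

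ThrRS (probe 5353), the threonine enzyme, had 2.22, 1.37 and 0.74 with DTT and 0.67, -0.32 and 0.30 without DTT under XBP-1 RNAi. On the arrays labelled IRE1 RNAi it had 1.11, 1.09 and 0.55 with DTT and 0.68, 0.25 and 0.09 without DTT. In control cells it had 1.77, 1.06 and 0.94 with DTT and 0.08, -0.19 and -0.42 without DTT. It rose under XBP-1 RNAi (1.23 ± 0.39, adjusted p = 0.0247), where the groups did not overlap. The effect was 0.58 ± 0.39 (0.407) on the arrays labelled IRE1 RNAi, where they overlapped. It rose in control cells too (1.43 ± 0.39, 0.00951), again with no overlap. The call under XBP-1 RNAi ended without array B without DTT (0.96) or array A with DTT (0.84). The call in control cells ended without array C without DTT (1.31, adjusted p = 0.0513) or array A with DTT (1.18, 0.0703).

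GluProRS (probe 5394) joins the glutamate and proline enzymes in 1 protein. It had -0.54, 1.30 and 0.60 with DTT and -0.56, -0.87 and -0.78 without DTT under XBP-1 RNAi. From arrays labelled IRE1 RNAi came -0.44, 0.79 and 0.11 with DTT and -1.41, -0.41 and -1.01 without DTT. In control cells it had 0.92, 0.31 and 0.07 with DTT and -0.38, -0.65 and -1.34 without DTT. The groups overlapped on the arrays labelled IRE1 RNAi and lay apart in the other 2 arms, by the least under XBP-1 RNAi. The effects were 1.19 ± 0.42 (adjusted p = 0.0438), 1.10 ± 0.42 (0.0752) and 1.22 ± 0.42 (0.0473) in the order XBP-1 RNAi, labelled IRE1 RNAi and control, of which the second passed with the replicate letter as a block (0.00528). The call under XBP-1 RNAi ended without control array B with DTT (1.19), without its own arrays A (1.28), B (1.12) or C (1.17) without DTT, or without B (0.77) or C (1.12) with DTT. In control cells it ended without B (1.29) or C (0.95) without DTT, without A (0.98), B (1.28) or C (1.41) with DTT, or without array B of XBP-1 RNAi without DTT (1.22).

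**Figure D2:**
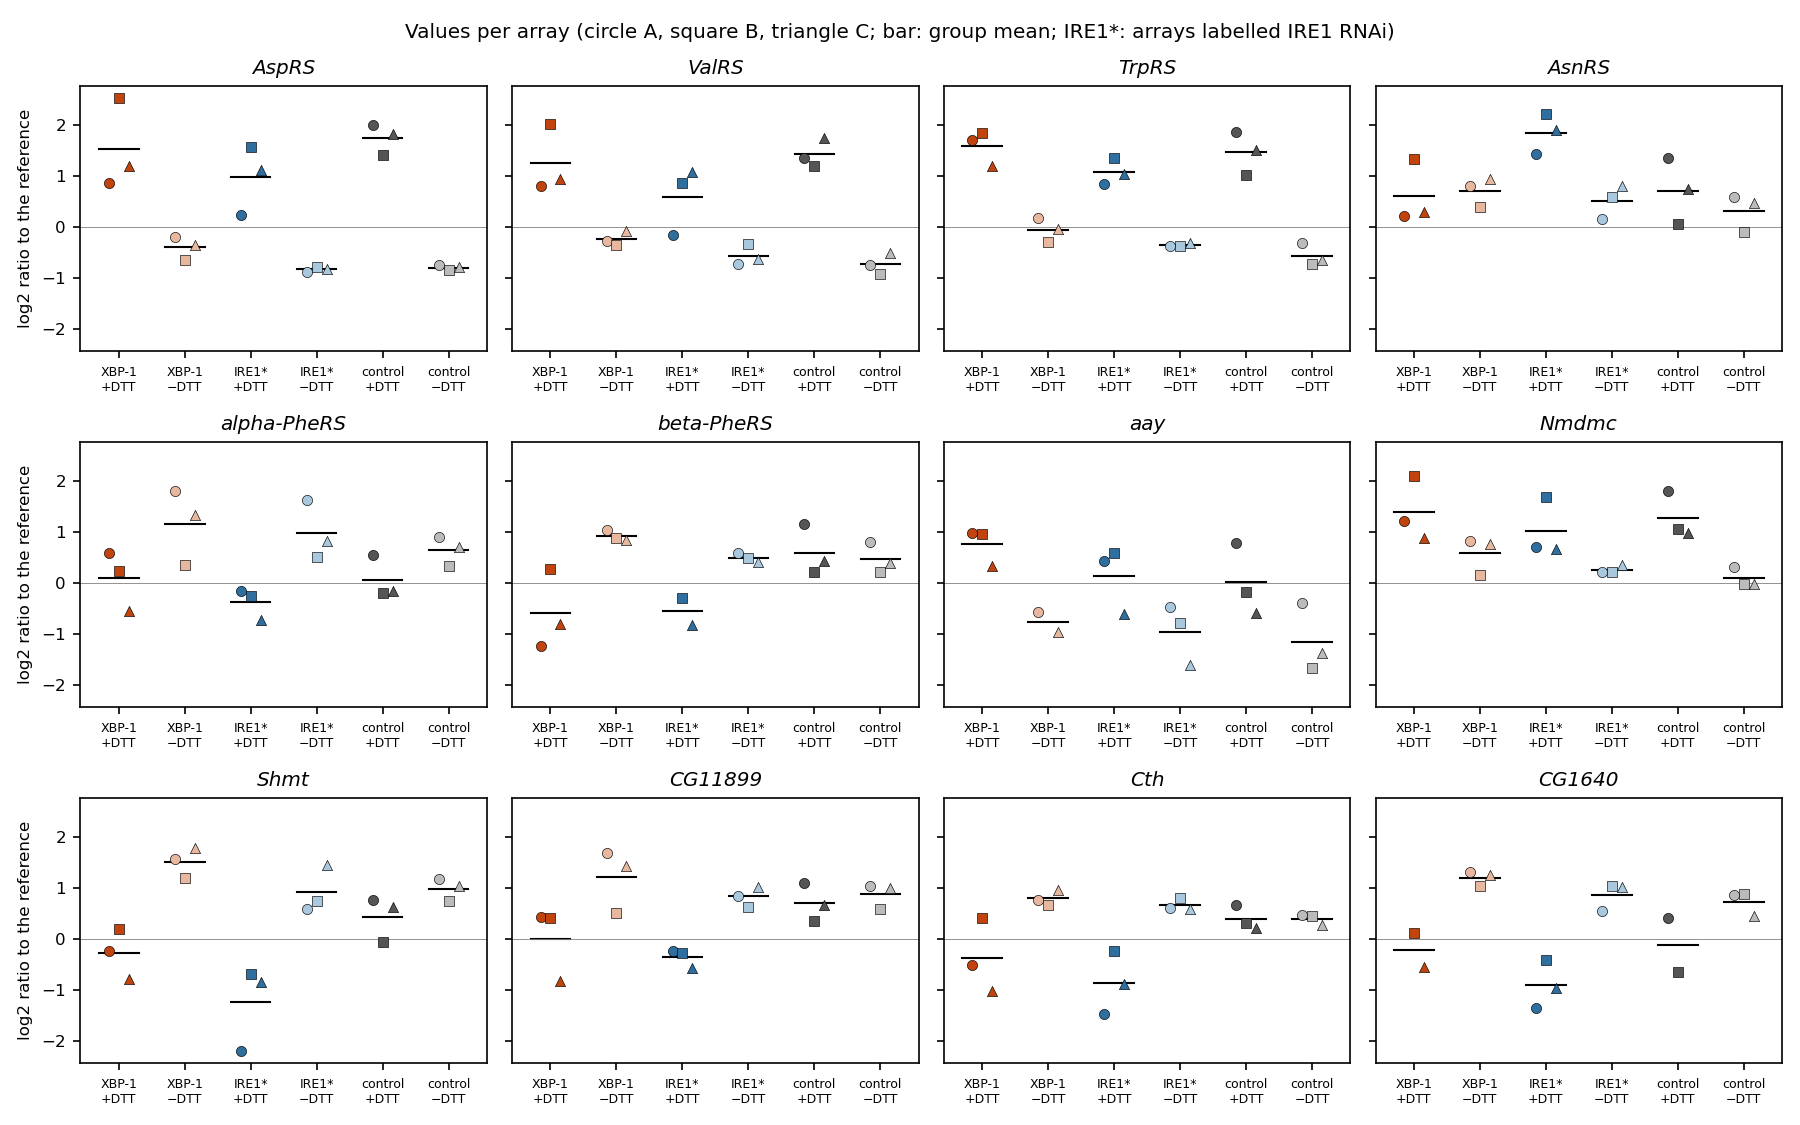
Log2 ratio to the common reference on each array for 12 members (6 synthetases in the first 6 panels, 6 enzymes in the last 6), with the 6 groups along the horizontal axis, a bar at each group mean and a marker shape for each replicate letter. The AspRS arrays with DTT lie above those without in each arm, and the Shmt arrays with DTT lie below those without in both RNAi arms and overlap with them in control cells.

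AlaRS and SerRS were called in control cells and in neither RNAi arm. AlaRS (probe 13391, alanine) had effects of 0.37 ± 0.38 under XBP-1 RNAi and 0.47 ± 0.38 on the arrays labelled IRE1 RNAi, against 1.43 ± 0.38 in control cells (adjusted p = 0.00735). SerRS (probe 17259, serine) had 0.39 ± 0.42 under XBP-1 RNAi and 0.41 ± 0.42 on the arrays labelled IRE1 RNAi, against 1.27 ± 0.42 in control cells (0.0375). The differences between arms did not pass the threshold for either gene, so the arms were not shown to differ. The SerRS call ended without control arrays B (1.13) or C (1.35) without DTT, or A (1.20) or C (1.12) with DTT. AsnRS (probe 10687, asparagine) is given array by array because of its values, after they were seen. It had 1.43, 2.21 and 1.90 with DTT and 0.16, 0.58 and 0.81 without DTT on the arrays labelled IRE1 RNAi, 0.21, 1.34 and 0.30 with DTT and 0.80, 0.40 and 0.94 without DTT under XBP-1 RNAi, and 1.35, 0.06 and 0.74 with DTT and 0.58, -0.09 and 0.48 without DTT in control cells. The groups separated on the arrays labelled IRE1 RNAi and overlapped in the other 2 arms. Its effects were 1.33 ± 0.39 (adjusted p = 0.0159) on the arrays labelled IRE1 RNAi, -0.10 ± 0.39 (0.917) under XBP-1 RNAi and 0.39 ± 0.39 (0.643) in control cells. The call ended without array A without DTT (1.15, adjusted p = 0.102) or array B with DTT (1.15, 0.0605).

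The subunits of the phenylalanine enzyme fell, each in 1 RNAi arm. The alpha subunit, alpha-PheRS (probe 2263), had 0.58, 0.24 and -0.55 with DTT and 1.80, 0.36 and 1.34 without DTT under XBP-1 RNAi. Arrays labelled IRE1 RNAi had -0.15, -0.25 and -0.72 with DTT and 1.62, 0.51 and 0.82 without DTT, and control cells gave 0.55, -0.20 and -0.15 with DTT and 0.91, 0.33 and 0.70 without DTT. Within each letter the array with DTT was the lower one in all 3 arms. It fell on the arrays labelled IRE1 RNAi (-1.36 ± 0.40, adjusted p = 0.0169), where the groups did not overlap. The effect was -1.08 ± 0.40 under XBP-1 RNAi (0.0618, or 0.00537 with the replicate block) and -0.58 ± 0.40 in control cells (0.452). The call ended without array A without DTT (-1.04) or array C with DTT (-1.18).

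The beta subunit, beta-PheRS (probe 5706), had -1.23, 0.27 and -0.80 with DTT and 1.04, 0.89 and 0.84 without DTT under XBP-1 RNAi. With arrays labelled IRE1 RNAi it had -0.29 and -0.82 on arrays B and C with DTT, array A being empty, and 0.59, 0.49 and 0.42 without DTT. Control cells gave 1.15, 0.21 and 0.43 with DTT and 0.81, 0.21 and 0.39 without DTT. The groups separated in both RNAi arms and overlapped in control cells. It fell under XBP-1 RNAi (-1.51 ± 0.38, adjusted p = 0.00424), and the call ended without array A with DTT (-1.19, 0.0527). The effect was -1.05 ± 0.43 on the arrays labelled IRE1 RNAi (0.101, or 0.0316 with the replicate block) and 0.13 ± 0.38 in control cells (0.907).

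The remaining synthetases passed in no arm. IleRS (probe 11471, isoleucine) had a value on 13 of 18 arrays, with 1 letter measured both with and without DTT in control cells. Its effects were 1.18, 1.12 and 1.24 in the order XBP-1 RNAi, labelled IRE1 RNAi and control. With the replicate block the effects were 1.11, 1.12 and 1.44, and all 3 passed (adjusted p = 0.0145, 0.0254 and 0.00637). GlyRS (probe 6778, glycine) had 0.89, 0.81 and 0.95, of which the control value passed with the block (0.0204). ArgRS (probe 9020, arginine) had 0.91, 0.59 and 0.78, of which the XBP-1 RNAi value passed with the block (0.0224). These 3 genes, and HisRS and CysRS, which follow, had effects above 0 in all arms. HisRS (probe 6335, histidine) had 0.37, 0.64 and 1.02, and CysRS (probe 8431, cysteine) had 0.51, 0.32 and 0.85, and both control values passed with the block (0.0118 and 0.046). TyrRS (probe 4561, tyrosine) had -0.43, 0.27 and 0.69, and MetRS (probe 15100, methionine) had -0.10, -0.24 and 0.26. LysRS (probe 12141, lysine) had -0.83, -0.51 and -0.54, of which the first passed with the block (0.0416). LysRS was below 0 in every arm, unlike the other 7 genes of this paragraph. LeuRS (probe 33123, leucine) had a single value, 0.16 on array A of XBP-1 RNAi with DTT, and could not be tested. GlnRS (glutamine) had no probe.

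In mammals 8 of these genes' counterparts sit in the multisynthetase complex, of which 6 could be tested here (AspRS, IleRS, MetRS, ArgRS, GluProRS and LysRS). Of the 6, 2 rose under XBP-1 RNAi, 1 on the arrays labelled IRE1 RNAi and 2 in control cells, with median effects of 1.05, 0.85 and 1.00. Of the 12 synthetases outside it, 3 rose and 1 fell, 3 rose and 1 fell, and 5 rose and 0 fell in the same arms, with medians of 0.38, 0.52 and 0.99. AIMP1, a non-enzymatic protein of that complex, fell under XBP-1 RNAi (-1.44 ± 0.38, adjusted p = 0.00538) and on the arrays labelled IRE1 RNAi (-1.24 ± 0.38, 0.021), and had -0.51 ± 0.38 in control cells. The first call ended without array C with DTT (-1.11), and the second without A (-1.26) or C (-1.14) without DTT or without A (-1.15) or C (-1.11) with DTT. AIMP2 had 0.30, -0.30 and 0.87 and passed in no arm. The 15 listed mitochondrial synthetase genes, which charge the tRNAs of the organelle, had 15 probes, with 2 for MetRS-m and none for AsnRS-m. Limma called 0 of 14, 0 of 13 and 0 of 13 tested probes in the 3 arms, with 3, 1 and 0 at an unadjusted p under 0.05. The median effects over these probes were -0.45, -0.44 and -0.13.

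Among the enzymes of serine and one-carbon metabolism, Shmt (probe 3011), which converts serine to glycine and loads a carbon onto folate, had the lowest mean effect. It had -0.24, 0.20 and -0.79 with DTT and 1.58, 1.20 and 1.78 without DTT under XBP-1 RNAi. The arrays labelled IRE1 RNAi gave -2.20, -0.69 and -0.84 with DTT and 0.58, 0.75 and 1.45 without DTT, and control cells gave 0.76, -0.06 and 0.62 with DTT and 1.18, 0.74 and 1.05 without DTT. The groups lay apart in both RNAi arms and overlapped in control cells. Shmt fell under XBP-1 RNAi (-1.80 ± 0.40, adjusted p = 0.00102) and on the arrays labelled IRE1 RNAi (-2.17 ± 0.40, 0.000159), and had -0.55 ± 0.40 (0.482) in control cells. Both calls held in every fit that left out 1 array.

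Phosphoserine phosphatase, aay (probe 3705), makes the last step of serine synthesis and moved the opposite way. It had 0.98, 0.96 and 0.33 with DTT and -0.56 and -0.96 on arrays A and C without DTT under XBP-1 RNAi. Arrays labelled IRE1 RNAi had 0.43, 0.59 and -0.61 with DTT and -0.46, -0.79 and -1.60 without DTT, and control cells gave 0.79, -0.17 and -0.58 with DTT and -0.40, -1.67 and -1.37 without DTT. Each letter with both values had its higher one with DTT in every arm, but the groups overlapped on the arrays labelled IRE1 RNAi and in control cells. It rose under XBP-1 RNAi (1.52 ± 0.47, adjusted p = 0.0204), a call that ended without array B with DTT (1.42, 0.0633). The effects on the arrays labelled IRE1 RNAi (1.09 ± 0.42, 0.0797) and in control cells (1.16 ± 0.42, 0.0657) passed with the replicate block (0.00584 and 0.00301).

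Nmdmc (probe 18466), the mitochondrial folate dehydrogenase and cyclohydrolase, had 1.22, 2.09 and 0.88 with DTT and 0.82, 0.15 and 0.77 without DTT under XBP-1 RNAi. On the arrays labelled IRE1 RNAi it had 0.71, 1.68 and 0.66 with DTT and 0.22, 0.21 and 0.35 without DTT, and control cells gave 1.80, 1.06 and 0.99 with DTT and 0.31, -0.02 and -0.01 without DTT. The groups did not overlap in any arm. The effects were 0.82 ± 0.38 under XBP-1 RNAi (adjusted p = 0.158, or 0.0457 with the replicate block) and 0.76 ± 0.38 on the arrays labelled IRE1 RNAi (0.213). It rose in control cells (1.19 ± 0.38, 0.0339). The call in control cells ended without B (1.13) or C (1.14) without DTT, or A (0.93) or C (1.34) with DTT. The cytosolic folate enzyme pug (probe 4067) had -0.09, 0.09 and 0.56 and passed in no arm. CG6287 (probe 6287), listed among these enzymes, had -0.10, 0.12 and 0.55 and passed in none.

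CG11899 (probe 11899), also listed among them, had 0.43, 0.41 and -0.82 with DTT and 1.68, 0.52 and 1.44 without DTT under XBP-1 RNAi. From arrays labelled IRE1 RNAi came -0.24, -0.28 and -0.56 with DTT and 0.85, 0.63 and 1.03 without DTT, and control cells gave 1.10, 0.35 and 0.66 with DTT and 1.05, 0.59 and 1.01 without DTT. The groups separated in both RNAi arms, narrowly under XBP-1 RNAi (0.43 with DTT on A, 0.52 without DTT on B). It fell under XBP-1 RNAi (-1.21 ± 0.39, adjusted p = 0.0257) and on the arrays labelled IRE1 RNAi (-1.20 ± 0.39, 0.0304), and had -0.18 ± 0.39 (0.86) in control cells. The first call ended without A (-0.97) or C (-1.09) without DTT or C (-0.79) with DTT. The second ended without A (-1.19) or C (-1.10) without DTT, or A (-1.26) or C (-1.10) with DTT.

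Cysteine is made from homocysteine and serine by Cbs, cystathionine beta-synthase, and Cth, cystathionine gamma-lyase. Cth (probe 5345) had -0.51, 0.41 and -1.01 with DTT and 0.76, 0.67 and 0.96 without DTT under XBP-1 RNAi. Arrays labelled IRE1 RNAi had -1.46, -0.23 and -0.89 with DTT and 0.60, 0.81 and 0.58 without DTT, and control cells gave 0.66, 0.32 and 0.22 with DTT and 0.48, 0.46 and 0.27 without DTT. The groups separated in both RNAi arms and overlapped in control cells, where the group means were 0.40 with DTT and 0.40 without. It fell under XBP-1 RNAi (-1.17 ± 0.38, adjusted p = 0.0287) and on the arrays labelled IRE1 RNAi (-1.52 ± 0.38, 0.00415). The first call ended without A (-1.19) or C (-1.08) without DTT, or A (-1.10) or C (-0.85) with DTT. Cbs (probe 1753) had 0.55 ± 0.41 under XBP-1 RNAi and 0.32 ± 0.41 on the arrays labelled IRE1 RNAi, and rose in control cells (1.39 ± 0.41, adjusted p = 0.0185). Its call ended without array B without DTT (1.25) or A with DTT (1.17).

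The transaminase CG1640 (probe 1640), alanine transaminase by its synonym, had 0.12 and -0.54 on arrays B and C with DTT under XBP-1 RNAi and 1.31, 1.04 and 1.26 without DTT. With arrays labelled IRE1 RNAi it had -1.35, -0.41 and -0.96 with DTT and 0.55, 1.04 and 1.03 without DTT, and control cells gave 0.42 and -0.64 on arrays A and B with DTT and 0.86, 0.88 and 0.45 without DTT. The groups did not overlap in any arm, the control groups nearly meeting at 0.42 with DTT and 0.45 without DTT. It fell under XBP-1 RNAi (-1.41 ± 0.42, adjusted p = 0.0166) and on the arrays labelled IRE1 RNAi (-1.78 ± 0.38, 0.000934), and had -0.84 ± 0.42 (0.25) in control cells. The mitochondrial aspartate transaminase Got2 (probe 4233) had -0.81, -1.26 and -0.02, of which the values of both RNAi arms passed with the replicate block (0.049 and 0.000943). The cytosolic form Got1 (probe 8430) had 0.06, -0.01 and 0.52 and passed in none.

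For proline, P5CS (probe 7470), which makes its precursor, had 2 values (-1.59 on array A of XBP-1 RNAi without DTT and -1.82 on array B labelled IRE1 RNAi with DTT) and could not be tested. P5cr (probe 6009), the reductase of the last step, fell on the arrays labelled IRE1 RNAi (-1.13 ± 0.37, adjusted p = 0.0337). It had -0.87 ± 0.37 under XBP-1 RNAi (0.116, or 0.0317 with the replicate block) and -0.52 ± 0.37 in control cells (0.476). The call ended without A (-1.13), B (-1.12) or C (-1.15) without DTT, or A (-1.09) or C (-1.05) with DTT. P5cr-2, a second reductase gene outside the 33, rose in all arms (1.42, 1.71 and 1.76, adjusted p = 0.0231, 0.00241 and 0.00171), with the first call ending without array A (1.25) or B (1.24) with DTT. The proline oxidase gene slgA fell in all arms (-2.31, -3.04 and -1.79, adjusted p = 6.25e-05, 3.45e-05 and 0.00176).

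Other genes around these pathways came from lists chosen with earlier results of these data known. Of all tested probes, 4.51%, 3.43% and 7.16% rose with DTT under XBP-1 RNAi, on the arrays labelled IRE1 RNAi and in control cells. In the same order 11.3%, 10.2% and 4.50% fell. Of 5 genes of the eIF2 kinase branch, 3, 3 and 4 could be tested, and 2, 1 and 2 rose in the order XBP-1 RNAi, labelled IRE1 RNAi and control, with 0 falls. The 2 in control cells were Thor and PPP1R15. The PPP1R15 call ended without control array B (1.11) or C (1.08) without DTT, or A (1.01) or C (1.10) with DTT. The kinase PEK itself, with a value on 1 array, was tested in no arm, and the kinase Gcn2, with 11, only in control cells. Thor, the translation inhibitor 4E-BP, rose in all arms (4.27 ± 0.42, 3.53 ± 0.42 and 2.73 ± 0.42, adjusted p = 4.75e-10, 3.94e-08 and 6.02e-06). With DTT limma also called it higher under XBP-1 RNAi than in control cells (1.66), where 2.06% of all probes were called. It was no longer called there without control array B (1.38) or C (1.68), or array A (1.44) or B (1.58) of XBP-1 RNAi. The mRNA of crc rose under XBP-1 RNAi (1.33 ± 0.41, adjusted p = 0.0179) and had 0.79 ± 0.41 in each of the other arms. That call ended without array B without DTT (0.88) or array B with DTT (1.21). Of 19 other amino acid and one-carbon enzymes, 12, 12 and 13 were tested, with 3 rises and 4 falls, 2 rises and 7 falls, and 3 rises and 2 falls. The glutamine synthetase Gs2 rose in all arms (2.20, 1.57 and 1.33, adjusted p = 3.49e-05, 0.00288 and 0.0301), the last call ending without control array A (1.03) or C (1.45) with DTT. The ornithine aminotransferase Oat fell in all arms (-1.90, -2.11 and -1.51, adjusted p = 0.00199, 0.000235 and 0.0185), the last call ending without control array C without DTT (-1.44). Of 7 amino acid transporter genes 4 were tested in each arm, and 0, 2 and 0 rose. Among the 2 was mnd, whose call ended in several fits that left out 1 array. It ended, for example, without array C without DTT (1.06) or A with DTT (0.97) labelled IRE1 RNAi. The unadjusted p was under 0.05 for 1 and 0 of the 4 in the arms with 0 calls. With DTT 1 of 4 tested transporters was called higher on the arrays labelled IRE1 RNAi than in control cells, where 2.11% of all probes were called.

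**Figure D3:**
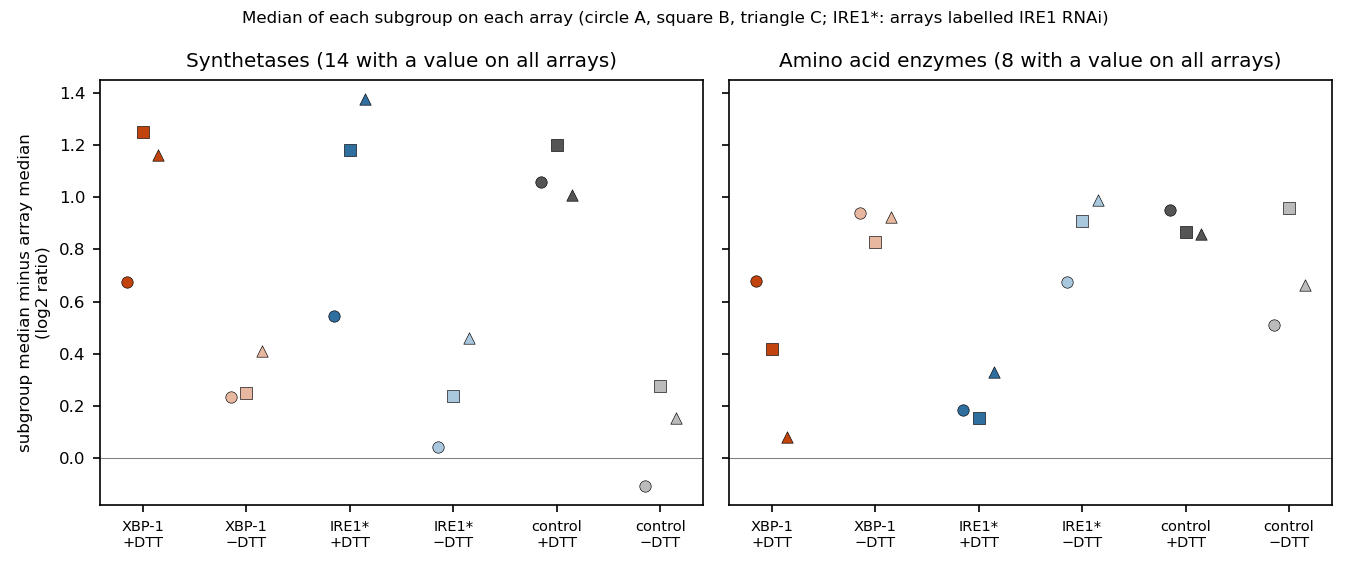
Median log2 ratio of each subgroup on each array minus the median of all values of that array, over 14 synthetases and 8 enzymes with a value on all 18 arrays, for the 6 groups. Synthetase medians run from 0.55 to 1.38 with DTT and from -0.10 to 0.46 without DTT, and enzyme medians with DTT are lower in both RNAi arms (0.08 to 0.68) than in control cells (0.86 to 0.95).

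Set against the median of its own array, the median of the 14 complete synthetases lay at 0.68 to 1.25 with DTT and 0.23 to 0.41 without DTT under XBP-1 RNAi. It lay at 0.55 to 1.38 with DTT and 0.04 to 0.46 without DTT on the arrays labelled IRE1 RNAi, and at 1.01 to 1.20 with DTT and -0.10 to 0.28 without DTT in control cells. The 9 arrays with DTT thus lay above the 9 without. The median of the 8 complete enzymes lay at 0.08 to 0.68 with DTT and 0.83 to 0.94 without DTT under XBP-1 RNAi, and at 0.15 to 0.33 with DTT and 0.68 to 0.99 without DTT on the arrays labelled IRE1 RNAi. In control cells it lay at 0.86 to 0.95 with DTT and 0.51 to 0.96 without DTT, so the enzyme medians were lower with DTT in both RNAi arms and overlapped in control cells. Markers also moved with DTT, in both directions. Limma called 2 of 6 tested hemocyte markers lower in each arm, among them the collagen gene vkg (-3.13, -2.21 and -3.13). On the arrays labelled IRE1 RNAi the other was Pxn, a call that ended without array A without DTT (-1.05) or C with DTT (-1.12). Effects lay above 0 for 2, 2 and 1 of the 6, with 0 rises called. Of the tissue markers, the actin gene Act57B fell in each arm (-1.27, -1.95 and -1.90). Its first call ended without array A without DTT (-1.13) or C with DTT (-0.96). Effects of the tissue markers lay above 0 for 1 of 5, 2 of 6 and 5 of 6, again with 0 rises called. Their part in the results was not tested.

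The order of the members by DTT effect was alike in the 3 arms. Across the 30 tested members, Pearson's r was 0.927 between XBP-1 RNAi and labelled IRE1 RNAi, 0.913 between XBP-1 RNAi and control and 0.877 between labelled IRE1 RNAi and control, with Spearman's rho of 0.895, 0.899 and 0.838. All tested probes gave r of 0.875, 0.732 and 0.747. The effects had the same sign in 25, 24 and 27 of the 30 members. The arms share no arrays but share the reference and the replicate letters, and genes are not independent replicates.

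With the replicate letter as a block, 9 members rose and 9 fell under XBP-1 RNAi, the arrays labelled IRE1 RNAi gave 7 rises and 8 falls, and control cells gave 14 rises and 0 falls. By the unblocked limma 14 members of control cells had an unadjusted p under 0.05 in either direction. The same fit called 26.3%, 22.0% and 19.5% of all probes in either direction. In it limma shrank all probes to a single shared variance, and the p-values of the block may be too small. With array medians set equal, the 3 arms had 10 rises and 8 falls, 11 rises and 7 falls, and 13 rises and 3 falls, with 31.0%, 22.5% and 23.6% of all probes called. Centring thus added 3 falls in control cells, those of LysRS, P5cr and CG1640 (adjusted p = 0.0138, 0.016 and 0.0146).

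Whether the DTT effect itself differed between the arms was tested as an interaction. No member passed in limma: 0 of 30 for XBP-1 RNAi minus control (0.620% of all probes were called), 0 of 30 for labelled IRE1 RNAi minus control (0.0894%) and 0 of 30 for labelled IRE1 minus XBP-1 RNAi (0%). At an unadjusted p under 0.05 there were 4, 3 and 1 members, and 408, 473 and 67 of all probes. The differences were below 0 for 28 of 30 members in each of the first 2, with medians of -0.53 and -0.56, and all probes had medians of -0.28 and -0.44. With arrays centred, 23 of 30 were below 0 in each. These 2 comparisons share the control arrays. With the replicate block beta-PheRS had a lower DTT effect under XBP-1 RNAi than in control cells (-1.64, adjusted p = 0.0159, against 0.216 without the block), where 3.48% of all probes were called. Shmt (-1.62, 0.0259, against 0.355) and Cth (-1.52, 0.0401, against 0.361) had lower effects on the arrays labelled IRE1 RNAi than in control cells, where 2.70% were called. The interactions of CG11899 and CG1640, which also fell in both RNAi arms, passed in neither fit. In control cells CG11899 had -0.18 and CG1640 had -0.84, the second a called fall with arrays centred (adjusted p = 0.0146), with quantile normalization (0.016) and with centring and the block (0.00579).

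**Figure D4:**
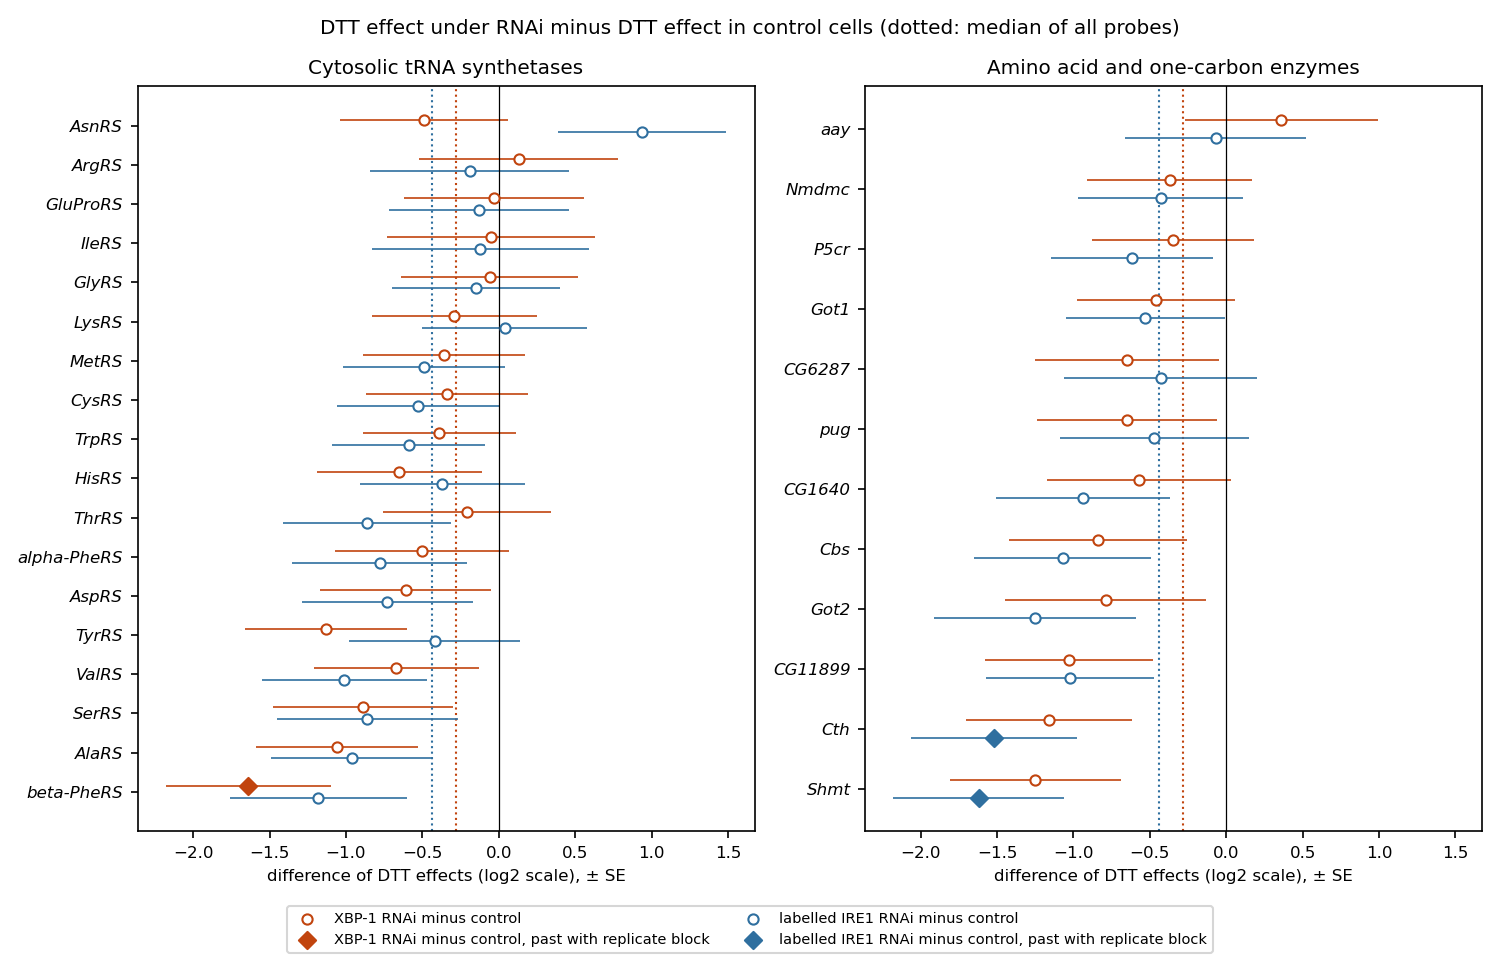
Difference of DTT effects, RNAi minus control, for each tested member on the log2 scale with bars of 1 standard error, and dotted lines at the medians of all probes (-0.28 for XBP-1 RNAi, -0.44 for labelled IRE1 RNAi). Diamonds mark the 3 differences with an adjusted p under 0.05 in the fit with the replicate block, beta-PheRS, Cth and Shmt, and AsnRS on the arrays labelled IRE1 RNAi (0.94) lies farthest right.

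Without DTT, RNAi and control cells were compared directly. Limma called 0 of 30 members for XBP-1 RNAi and 0 of 30 for the arrays labelled IRE1 RNAi, and 0% of all probes in each. At an unadjusted p under 0.05 there were 0 members in each, and 75 and 24 of all probes. All 30 members lay above 0 for XBP-1 RNAi minus control (0.03 to 0.77, median 0.44), while the median of all probes was 0.22, and with arrays centred 25 of 30 did.

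With DTT, 0 of 30 members passed for XBP-1 RNAi minus control (2 at an unadjusted p under 0.05), where 2.06% of all probes were called. With the replicate block beta-PheRS passed (-1.18, adjusted p = 0.00945), where 4.31% were called. On the arrays labelled IRE1 RNAi with DTT, Shmt was lower than in control cells with DTT (-1.68 ± 0.40, adjusted p = 0.0119), 1 of 30 members, where 2.11% were called, and 8 members had an unadjusted p under 0.05. The Shmt call ended without control array A (-1.52) or C (-1.59) or array A labelled IRE1 RNAi (-1.21). That last array, where Shmt stood at -2.20, held the fewest values of the series (3755, with 48.26% of its cells empty). The median difference of all probes in this comparison was -0.40. With the replicate block, where 7.79% were called, beta-PheRS (-1.11, 0.0398), CG11899 (-1.06, 0.0199) and Cth (-1.26, 0.00341) were lower as well, and AsnRS was higher (1.13, 0.012).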

How the data were processed

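Per the labels' protocols, total RNA was labelled with Cy5 and hybridised with 1 Cy3 reference to 18 spotted arrays. Normalization was done by the authors with the database NOMAD, and weak, inconsistent or defective spots were dropped, per the labels. Of the table's cells 18.8% are empty. The deposited values were used as log2 ratios as they stand, with no further scaling. Scanner intensities were not used here. The number of arrays per group limits the precision. Each probe number was taken for a CG gene number and named through RefSeq's locus tags. CG numbers make up 99.9% of the probe numbers and 40.9% of the whole numbers they span, and the platform's own symbol equalled the CG gene for 0 of 19 member probes that had one. All 33 member numbers matched a locus tag.

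Groups and letters came from the sample titles. The model had 6 group means per probe (lmFit and eBayes of limma 3.58.1 in R 4.3.3), with at least 2 values per group of a contrast. P-values are 2-sided, adjusted by Benjamini-Hochberg over all probes of a contrast, with a threshold of 0.05. The fit without a block was tried on simulated data with independent noise on each array, for the DTT effect in control cells only. The replicate block and the differences of DTT effects were not simulated. Same-group arrays correlated at 0.639 to 0.876 and shared at most 1.27% of values, so none was counted as a duplicate. Same-letter arrays of groups compared deviated together in all 21 pairs (r from 0.231 to 0.701 over 2737 complete probes; other letters reached 0.31), so letters were also used as a block. The alternatives were median centring, quantile normalization, the replicate block, centring with the block, complete probes, only the arrays of a contrast, leaving out each array, and robust eBayes.

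The members and lists were chosen with earlier results of these data known. Values on every array are given for members called in 2 or more arms or in a contrast of RNAi with control, and for the 2 largest and 2 smallest mean effects of each subgroup. Promoter motifs were not analysed here.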

Additional observations from a re-analysis of the deposited data

Results flagged for a closer look

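No difference of DTT effects between arms passed for a member in the fit without a block. With the replicate block, 3 did. The DTT effect of beta-PheRS was lower under XBP-1 RNAi than in control cells by limma (-1.64 ± 0.46, adjusted p = 0.0159). On the arrays labelled IRE1 RNAi the effects of Shmt (-1.62 ± 0.46, adjusted p = 0.0259) and Cth (-1.52 ± 0.46, adjusted p = 0.0401) were lower than in control cells.

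With arrays centred on their medians and the block, beta-PheRS (-1.33 ± 0.30, adjusted p = 0.0138) and Cth (-1.12 ± 0.26, adjusted p = 0.0181) passed in the same comparisons, and Shmt did not. AsnRS then had a higher DTT effect on the arrays labelled IRE1 RNAi than in control cells (1.34 ± 0.31, adjusted p = 0.0174) and than under XBP-1 RNAi (1.52 ± 0.31, adjusted p = 0.025). The Ire1 probe goes against the labels of that arm, so its directions rest on the labels.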

How the results depend on the processing

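All 31 member calls kept their direction and passed under median centring, quantile normalization, the replicate block, centring with the block, only the arrays of a contrast and robust eBayes, and 27 of 27 passed over complete probes. Leaving out 1 array at a time, 13 passed in every fit that could test them and 18 did not, and AlaRS under XBP-1 RNAi, not called, had effects from -0.02 (the sign changed without replicate B with DTT) to 0.63 (without replicate A with DTT). The counts of members called with DTT (11 under XBP-1 RNAi, 10 on the arrays labelled IRE1 RNAi, 9 in control cells) became 18, 18 and 16 with centring, 17, 17 and 17 with quantile normalization, 18, 15 and 14 with the replicate block, and 21, 23 and 20 with both. Leaving out arrays gave 7 to 12 under XBP-1 RNAi (7 without A or C without DTT, or C with DTT), 5 to 11 on the arrays labelled IRE1 RNAi (5 without A without DTT), and 4 to 12 in control cells (5 without B or C without DTT, 4 without A with DTT). For the difference of DTT effects from control, counts of 0 became 1 with the block and 1 with centring and block for XBP-1 RNAi, and 2 and 2 for labelled IRE1 RNAi. Between the RNAi arms centring with block gave 1. With DTT against control, XBP-1 RNAi, with 0, gave 1 with centring, quantile normalization or the block and 4 with centring and block (0 to 1 leaving out arrays, 1 without its own B). The arrays labelled IRE1 RNAi, with 1, gave 2 with centring, quantile normalization or complete probes, 5 with the block and 4 with centring and block (0 to 2 leaving out arrays, 2 without their own B and 0 without their own A or control array A or C). Beyond the calls given with their blocked values in the report, the replicate block changed no other member call. Where no value or construction shows it, the cause was not tested. The lack of array intensities leaves signal over background unknown here.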
